A study of Homo sapiens with 8 samples.

Results

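Messenger RNA of 35 genes of homologous recombination and of the Fanconi anaemia pathway was followed in colorectal cancer cells. The genes were chosen by name, with earlier results of these data known. Each one is a row of the deposited table of counts per gene symbol, which holds 57169 rows. All 35 passed a filter on low counts that left 21378 genes to be tested. The cells were HCT116, a colorectal carcinoma line, and SW620, a line grown from a lymph node metastasis of a colorectal carcinoma. Each line was treated for 24 hours either with 5-fluorouracil (5-FU), an inhibitor of thymidylate synthase, or with AFZC. Per the series title, the study is of an aptamer-modified metal-organic framework nanodrug with 5-FU enclosed in it, and the labels call the second treatment AFZC. The 4 groups were therefore HCT116 with 5-FU, HCT116 with AFZC, SW620 with 5-FU and SW620 with AFZC, with 2 libraries in each. Each agent was given at its IC50 dose in the line concerned, and the labels print no dose. Untreated cells were not analysed here, and every treatment effect is AFZC relative to 5-FU. Whether libraries 1 and 2 of a group were separate cultures is not in the labels, and the p-values then cover only how far such a pair of libraries lies apart, which may be a technical spread.

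Homologous recombination repairs a double-strand break, or a broken replication fork, by copying the sister chromatid. Nucleases cut back the ends of the break, the BRCA proteins load a recombinase on the single strand, that filament invades the intact duplex with the help of recombinase paralogs and of motor proteins, and structure-selective nucleases or helicases separate the joined molecules. The Fanconi pathway removes crosslinks between the strands: an anchor and a core ubiquitin ligase mark the clamp of FANCD2 and FANCI, and the crosslink is then cut out and repaired with recombination proteins. Many of these genes are transcribed mostly from late G1 to G2, when a sister chromatid is made or present, and E2F factors act on several of their promoters.

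Total counts ran from 31991561 to 40590291 per library, and 24427 to 28340 genes had counts. The scaling factors of the trimmed mean method (TMM) ran from 0.816 to 1.11 and were lowest in the SW620 libraries with 5-FU. Levels below are counts per 1e+06 counts (CPM) of the TMM-scaled library. Of the epithelial identity markers EPCAM, KRT8, KRT18, KRT19, CDH1, CDX2, VIL1 and LGALS4, the summed level was 3498 to 7939 CPM in HCT116, 15191 to 16529 CPM in SW620 with 5-FU and 5014 to 5462 CPM in SW620 with AFZC. Summed over a leukocyte list of 5 genes, the level was 0.371 to 0.804 CPM in HCT116, 5.75 to 8.0 CPM in SW620 with 5-FU and 16.3 to 42.2 CPM in SW620 with AFZC. Almost all of it in SW620 was LYZ, while PTPRC, the pan-leukocyte marker, stayed between 0 and 0.07 CPM there. A fibroblast list of 6 genes summed to 44.5 to 81.4 CPM, with 1 to 3 of them at 0 in each library, and an endothelial list of 3 genes to 3.14 to 18.3 CPM.

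Promoter sequences show where the letters that E2F factors are known to bind occur in the members with the clearest matches. They were taken from the RefSeq table of promoters on GRCh38.p14, which had an entry for 31 of the 35 genes, as 250 bases before and 50 after the start. Both strands were searched for the E2F words TTTGGCGC, TTTCCCGC, TTTGCCGC and TTTCGCGC and for the cell cycle homology word TTTGAA. Stretches of the 5 promoters with an E2F word follow, each read 5′ to 3′ on the strand of its gene, with both kinds of word in capitals.
XRCC2: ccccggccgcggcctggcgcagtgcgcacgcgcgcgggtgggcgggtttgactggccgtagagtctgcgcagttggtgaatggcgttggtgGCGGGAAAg
GEN1: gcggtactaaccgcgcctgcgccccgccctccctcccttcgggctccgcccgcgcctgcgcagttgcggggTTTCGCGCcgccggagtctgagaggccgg
FANCD2: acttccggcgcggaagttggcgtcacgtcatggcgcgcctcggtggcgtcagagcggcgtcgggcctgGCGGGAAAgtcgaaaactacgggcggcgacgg
FANCA: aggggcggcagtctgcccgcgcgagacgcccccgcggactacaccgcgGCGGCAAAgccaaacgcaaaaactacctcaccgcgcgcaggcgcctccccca
FANCC: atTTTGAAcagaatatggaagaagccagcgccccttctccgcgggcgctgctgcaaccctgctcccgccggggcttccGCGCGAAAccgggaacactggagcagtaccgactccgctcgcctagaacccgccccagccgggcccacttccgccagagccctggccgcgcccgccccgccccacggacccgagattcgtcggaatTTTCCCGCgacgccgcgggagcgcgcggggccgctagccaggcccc
The XRCC2 stretch is chr7:152676112-152676211 on the minus strand, and its word begins at base 22 after the start. The GEN1 stretch is chr2:17753799-17753898 on the plus strand, with the word from base 2 after the start. The FANCD2 stretch is chr3:10026367-10026466 on the plus strand, with the word from 2 bases before the start across it. The FANCA stretch is chr16:89816768-89816867 and the FANCC stretch chr9:95317710-95317959, both on the minus strand. FANCC held E2F words from 172 and from 46 bases before the start, and a cell cycle homology word from 248 bases before it. At least 1 E2F word was present in 5 of 31 member promoters (16.1%), in 3.31% of all 35116 promoters of that length in the table and in 4.10% of those of protein-coding genes. The cell cycle homology word was in 3 of 31 (9.68%), those of BRIP1, UBE2T and FANCC, against 15.2% of all, and the CCAAT word in 12 of 31 (38.7%) against 34.6% of all. Of the members described below that rose in SW620, 4 of 21 with an entry had an E2F word and 10 of 21 had CCAAT. Of those not called there, 1 of 10, FANCC, had an E2F word and 2 of 10 had CCAAT. A match is a description of letters and not a mapped site. One entry was used for each gene, and not all entries lie at the outer end of the gene. Those of RAD50, RBBP8, RAD51B, RAD51D, RAD52, MUS81 and FANCC lie wholly inside the span of the gene in GENCODE release 29. That of BRCA1 lies wholly outside it. Other starts of these genes were not searched, so the counts above do not cover them.

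In SW620 most of the members were called higher with AFZC than with 5-FU, and in HCT116 1 of 35 was called. In SW620, 23 of 35 rose and 0 fell, while 11.6% of all genes tested rose and 6.95% fell. In HCT116, 1 of 35 (2.86%) rose and 0 fell, near the shares of all genes, 5.87% and 3.74%. A missing call with 2 libraries a group does not show equal levels. The median log2 fold change of the 35 was 1.43 in SW620 and 0.06 in HCT116, and that of all genes tested was 0.03 and 0.00. Calls here have a Benjamini-Hochberg adjusted p under 0.05 in edgeR's quasi-likelihood test over all 21378 genes. At an unadjusted p under 0.05, 27 members were higher and 0 lower in SW620, and 5 were higher and 3 lower in HCT116. The share of all genes under that limit was not computed. Of all 21378 genes, DESeq2 called 2664 higher and 1751 lower in SW620, and 1543 and 1172 in HCT116. Of the members it called 24 higher and 0 lower in SW620, and 2 higher and 1 lower in HCT116. Without SW620 5-FU library 2 the number that rose in SW620 was 19. Of the 23, 20 rose at least 2-fold. With scaling by library size alone the median of all genes in SW620 was 0.40, the calls over all genes were 5141 higher and 445 lower in place of 2482 and 1486, and 29 members were higher; the members' median then stood 1.397 above that of all genes, against 1.41 with TMM. In these bulk samples a change in RNA per cell and a change in the share of cells that hold the RNA cannot be told apart.

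Summed over the 35 genes, the level was 911 and 992 CPM in the HCT116 5-FU libraries and 1021 and 1135 CPM in those with AFZC. In SW620 it was 699 and 603 CPM with 5-FU and 1503 and 1597 CPM with AFZC. SW620 cells thus had the lowest sums under 5-FU and the highest under AFZC, with HCT116 between them. Per kilobase of exon, the median member stood at 4.48 and 5.20 CPM per kb in HCT116 with 5-FU and AFZC, and at 2.44 and 5.77 CPM per kb in SW620. UBE2T, the ubiquitin-conjugating enzyme of the Fanconi core, was the highest member per kb in every group, from 15.4 to 49.99 CPM per kb. RAD54B, RAD51B and RAD50 were among the lowest, each under 1 CPM per kb in 3 or 4 of the 4 groups. RAD54B and RAD50 share 59.1% and 79.7% of their exon bases with other genes, so their levels per kb are uncertain.

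**Figure D1:**
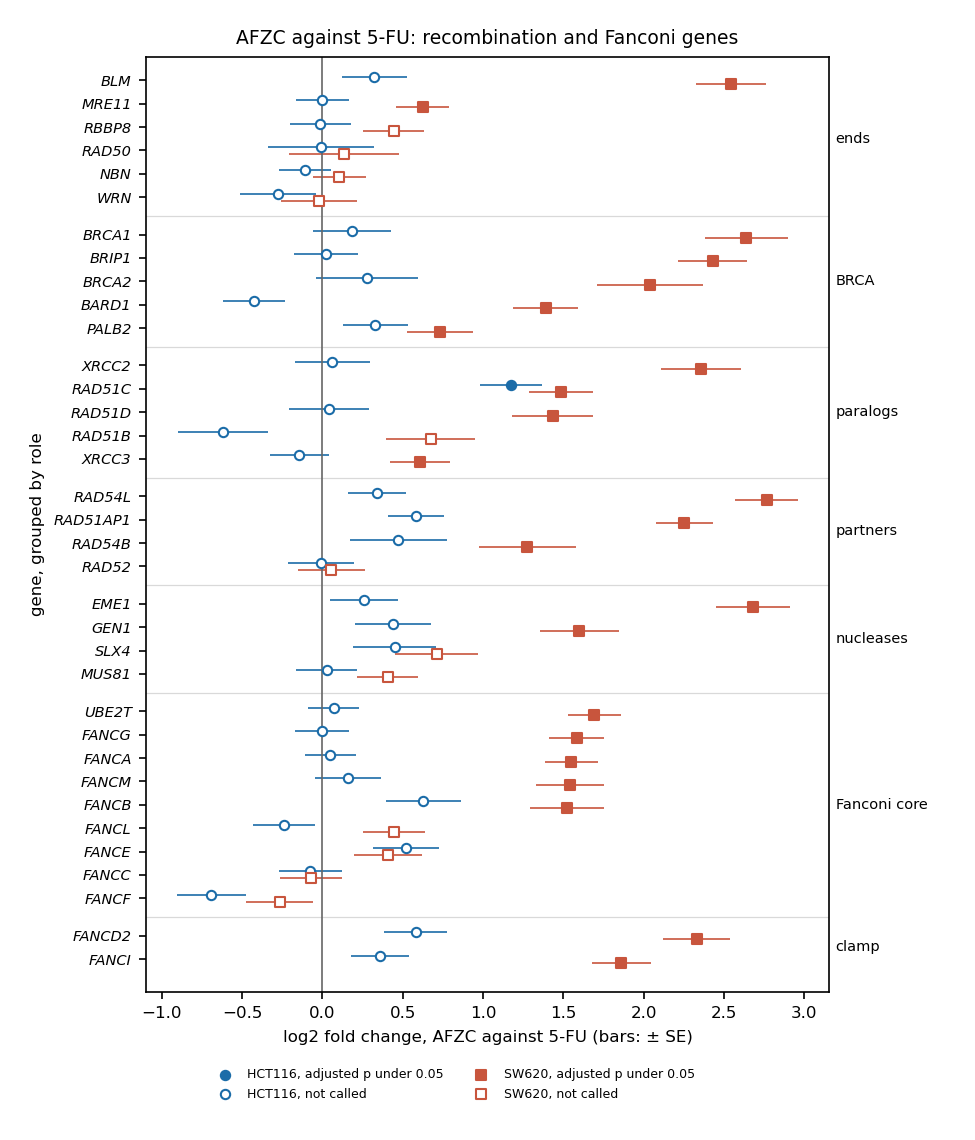
Log2 fold change of each of the 35 genes, AFZC against 5-FU, in HCT116 (blue circles) and SW620 (red squares), with bars of ± SE and filled symbols where the adjusted p was under 0.05. Genes are grouped by role: break ends and resection, BRCA complexes, recombinase paralogs, strand exchange partners, nucleases, Fanconi core, and the clamp. In SW620 23 filled symbols lie to the right of 0, and in HCT116 only RAD51C is filled.

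Among the 6 genes that handle break ends, BLM and MRE11 rose in SW620 and the other 4 were not called. BLM is the helicase of Bloom syndrome, which works in resection and in the dissolution of double Holliday junctions. Its level was 12.1 and 7.61 CPM in the SW620 5-FU libraries and 58.0 and 56.8 CPM in the AFZC libraries, against 32.0 and 33.4 CPM, then 44.4 and 37.4 CPM, in HCT116. Both SW620 5-FU libraries were below all others and both SW620 AFZC libraries above all others, and the change in SW620 was 2.54 ± 0.217 (log2, SE; adjusted p = 1.18e-05). MRE11, the nuclease of the complex that first binds an end, was at 49.4 and 42.2 CPM and then 74.6 and 66.4 CPM in SW620, a log2 change of 0.62 ± 0.163 (adjusted p = 0.0189). That call was lost without SW620 5-FU library 2 (log2 0.51, adjusted p = 0.198) and without SW620 AFZC library 1 (0.54, 0.0931), and the adjusted p ranged from 0.0016 to 0.198 over all the alternatives.

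NBN and RAD50, the partners of MRE11, were not called in SW620, and their difference from MRE11 was not tested. NBN, which links the complex to damage signalling, was at 59.1 and 45.2 CPM and then 55.8 and 56.4 CPM in SW620, with overlapping groups and a log2 change of 0.11 (95% interval -0.25 to 0.46). RAD50, the ATPase of the complex, had 3.85 and 3.11 CPM and then 2.73 and 4.91 CPM in SW620 (95% interval of the log2 change -0.61 to 0.88). Of its exon bases in GENCODE release 29, 79.7% are shared with AC116366.3 and TH2LCRR, so its level is uncertain. RBBP8, known as CtIP, which starts resection, was at 57.4 and 66.6 CPM with 5-FU and 67.9 and 101 CPM with AFZC in SW620, a log2 change of 0.44 that was not called (adjusted p = 0.121). Without SW620 AFZC library 1 it was 0.71 (adjusted p = 0.0205), and the adjusted p ranged from 0.0065 to 0.702 over the alternatives. WRN, the helicase of Werner syndrome, ranged from 25.3 to 43.0 CPM over all 8 libraries, with overlapping groups in both lines. Per kb, BLM stood at 0.292 and 0.207 times WRN in SW620 with 5-FU and at 1.94 and 1.21 times with AFZC.

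All 5 genes of the BRCA complexes rose in SW620 with AFZC, and none was called in HCT116. BRCA1, the ubiquitin ligase and scaffold that directs breaks to recombination, was at 21.9 and 12.3 CPM with 5-FU and at 98.8 and 114 CPM with AFZC in SW620. The HCT116 libraries held 39.8 and 45.6 CPM, then 40.7 and 56.2 CPM, and lay between the SW620 groups. The SW620 change was 2.64 ± 0.258 (log2, SE; adjusted p = 5.14e-05), or 6.23-fold. BARD1, the obligate partner of BRCA1, rose less, from 6.71 and 7.55 CPM to 18.7 in both libraries, a log2 change of 1.39 ± 0.200 (adjusted p = 0.000574). In HCT116, BARD1 was 21.2 and 21.7 CPM with 5-FU and 16.2 and 15.8 CPM with AFZC, groups that did not overlap but a difference that was not called (log2 -0.42, adjusted p = 0.196). The ratio of BRCA1 to BARD1 per kb was 2.16 and 1.08 in SW620 with 5-FU and 3.48 and 4.04 with AFZC.

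BRIP1, the helicase FANCJ that binds BRCA1, rose in SW620 from 11.6 and 9.60 CPM to 56.2 and 57.9 CPM, a log2 change of 2.43 ± 0.214 (adjusted p = 1.46e-05). BRCA2, which loads the recombinase on single strands, rose from 10.4 and 7.43 CPM to 33.7 and 39.3 CPM, a log2 change of 2.04 ± 0.332 (adjusted p = 0.00182). In HCT116, BRCA2 was 20.7 and 25.4 CPM with 5-FU and 17.3 and 38.7 CPM with AFZC. The 2 HCT116 AFZC libraries thus lay on either side of the 5-FU libraries for BRCA2, as they did for BRIP1 (27.8 and 42.2 CPM around 32.7 and 36.2 CPM) and for XRCC2. PALB2, the bridge between BRCA1 and BRCA2, rose the least of the 5: 18.7 and 13.4 CPM with 5-FU and 24.4 and 28.8 CPM with AFZC, a log2 change of 0.73 ± 0.205 (adjusted p = 0.026). Its call was lost without SW620 5-FU library 2 (0.51, adjusted p = 0.272), without SW620 AFZC library 2 (0.61, 0.0992) and without HCT116 5-FU library 1 (0.73, 0.0515), and the adjusted p ranged from 0.00291 to 0.272 over the alternatives.

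**Figure D2:**
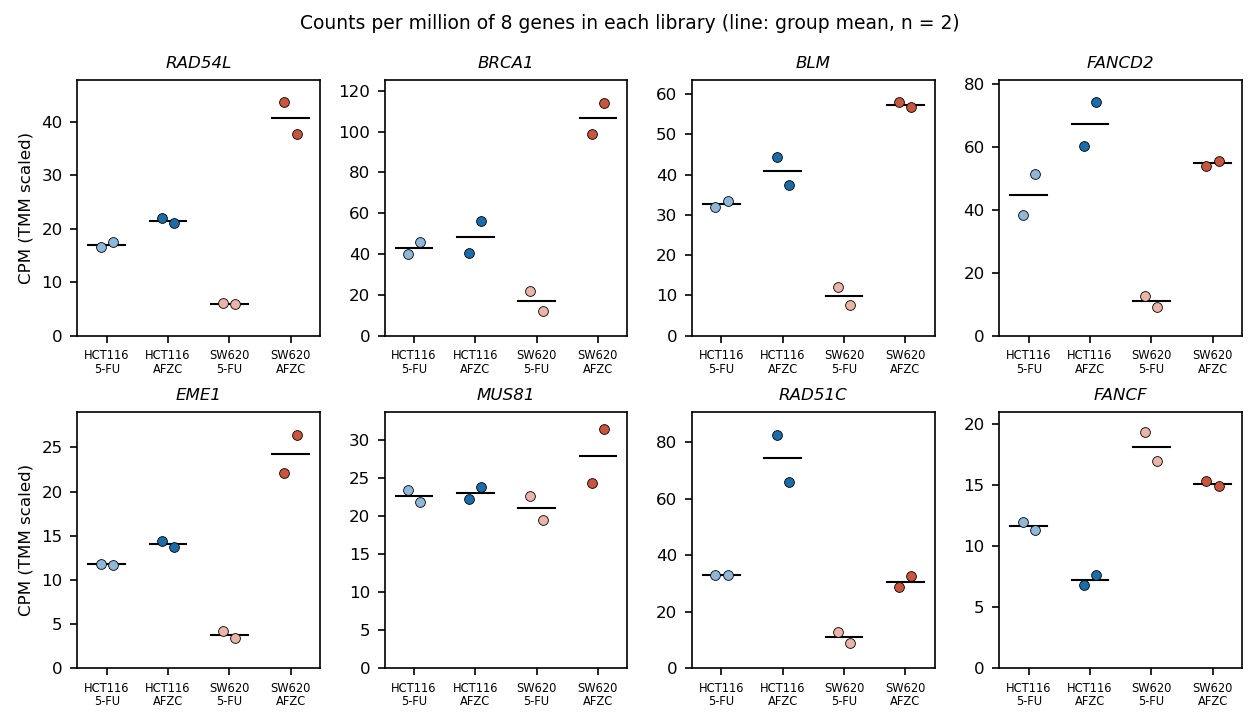
CPM (TMM-scaled, linear axis from 0) of 8 of the genes in each of the 8 libraries, with the mean of each group as a line. RAD54L, BRCA1, BLM and EME1 are lowest in SW620 with 5-FU and highest in SW620 with AFZC, MUS81 stays between 19.4 and 31.4 CPM, and RAD51C is highest in HCT116 with AFZC.

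Of the 5 recombinase paralogs, which stabilise the filament, 4 rose in SW620 and RAD51C also rose in HCT116. RAD51C (chr17:58692573-58735611, plus strand) was the only member called in HCT116. There it was at 32.9 and 33.0 CPM with 5-FU and at 82.7 and 66.1 CPM with AFZC, a log2 change of 1.17 ± 0.194 (adjusted p = 0.0031). Without HCT116 5-FU library 1 the size was the same (1.17) and the adjusted p was 0.064, the highest of a range that began at 1.71e-07. In SW620, RAD51C rose from 12.9 and 9.0 CPM to 28.8 and 32.5 CPM, a log2 change of 1.49 ± 0.201 (adjusted p = 0.000361). The effects in the lines differed by 0.31 (95% interval -0.28 to 0.91, adjusted p = 0.532). Even after its rise, RAD51C in both SW620 AFZC libraries was below both HCT116 5-FU libraries.

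XRCC2 rose in SW620 from 18.3 and 11.4 CPM to 73.1 and 78.5 CPM, a log2 change of 2.36 ± 0.248 (adjusted p = 6.41e-05). RAD51D, its direct partner, rose from 13.5 and 9.18 CPM to 24.4 and 36.9 CPM, a log2 change of 1.43 ± 0.254 (adjusted p = 0.00213). XRCC3, the partner of RAD51C, was at 17.8 and 21.3 CPM and then 28.9 and 30.7 CPM, a log2 change of 0.61 ± 0.186 (adjusted p = 0.0377). The XRCC3 call is the least firm of the 23: it was lost on leaving out any of 6 of the 8 libraries and with a replicate block, with values from 0.49 to 0.74 and adjusted p from 0.0527 to 0.230 (0.00185 to 0.230 over all the alternatives). Also, 76.7% of the exon bases of XRCC3 are shared with KLC1 on the opposite strand, which had 1704 to 2474 counts per library, and the libraries do not keep the strand. RAD51B was low, at 6.13 and 5.47 CPM with 5-FU and 8.04 and 10.5 CPM with AFZC in SW620, and was not called (log2 0.68, adjusted p = 0.111). Per kb, RAD51C stood at 1.22 and 1.38 times XRCC3 in HCT116 with 5-FU and at 3.22 and 3.24 times with AFZC, and at 0.899 and 0.523 times and then 1.23 and 1.31 times in SW620.

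RAD54L showed the largest rise of all the members in SW620. RAD54L (chr1:46247688-46278473, plus strand) encodes the motor protein that moves along DNA and drives strand invasion. It was at 6.09 and 5.86 CPM in SW620 with 5-FU and at 43.6 and 37.7 CPM with AFZC, 6.80-fold higher (log2 2.77 ± 0.194, adjusted p = 7.41e-06). In HCT116 it was at 16.6 and 17.4 CPM and then 22 and 21.0 CPM, groups that did not overlap but a difference that was not called (log2 0.34, 95% interval -0.05 to 0.73). Part of its exons, 25.1%, is shared with LRRC41, whose counts in SW620 were 2143 and 2590 with 5-FU and 1637 and 2106 with AFZC, while those of RAD54L were 177 and 194 and then 1550 and 1352. RAD51AP1, which aids the recombinase in strand pairing, rose from 20.3 and 17.1 CPM to 94.0 and 84.3 CPM in SW620 (log2 2.25 ± 0.178, adjusted p = 7.67e-06). It was at 13.2 and 15.5 CPM and then 20.3 and 22.8 CPM in HCT116, a log2 change of 0.58 that missed the threshold (adjusted p = 0.0521, 0.0335 to 0.345 over the alternatives).

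The other two partners were RAD54B and RAD52. RAD54B, a relative of RAD54L, was at 3.54 and 2.96 CPM and then 8.58 and 7.17 CPM in SW620 (log2 1.28 ± 0.301, adjusted p = 0.0113). Its call was lost without SW620 5-FU library 2 (1.15, adjusted p = 0.113) and without SW620 AFZC library 1 (1.15, 0.0525), and the range over the alternatives was 0.00111 to 0.113. It shares 59.1% of its exon bases with FSBP, a gene with 1 to 42 counts per library, and is uncertain for that reason. RAD52, the annealing protein that acts in single-strand annealing, was at 18.3 and 13.3 CPM and then 15.1 and 17.7 CPM in SW620, and between 21.6 and 22.4 CPM in all 4 HCT116 libraries. Its log2 changes were 0.06 (95% interval -0.39 to 0.51) and -0.01 (-0.45 to 0.44), so that a 2-fold change lay outside both intervals.

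Of the nucleases that cut joint molecules, EME1 and GEN1 rose in SW620, and MUS81 and SLX4 were not called. EME1 (chr17:50373220-50381483, plus strand) is the regulatory partner of the MUS81 nuclease. It was at 4.16 and 3.41 CPM with 5-FU and at 22.1 and 26.5 CPM with AFZC in SW620, 6.42-fold higher (log2 2.68 ± 0.232, adjusted p = 1.27e-05). MUS81, the catalytic subunit, was at 22.6 and 19.4 CPM and then 24.3 and 31.4 CPM (log2 0.41 ± 0.190, adjusted p = 0.158). Per kb, the ratio of EME1 to MUS81 was 0.841 and 0.891 in HCT116 with 5-FU and 1.08 and 0.961 with AFZC. In SW620 the ratio was 0.306 and 0.292 with 5-FU and 1.51 and 1.4 with AFZC. In CPM, which is not per length, EME1 was below MUS81 in both SW620 AFZC libraries. EME1 shares 16.4% of its exon bases with LRRC59 and MUS81 14.1% with other genes, CFL1 and EFEMP2. GEN1, a Holliday junction resolvase, rose from 19.4 and 12.1 CPM to 43.3 and 52.1 CPM (log2 1.60 ± 0.243, adjusted p = 0.000846). SLX4, the scaffold for several of these nucleases, was at 20.9 and 21.0 CPM and then 38.7 and 29.97 CPM, a log2 change of 0.71 that was not called (adjusted p = 0.0719). It was called with DESeq2, with no filter on low counts, with scaling by library size, with SW620 fitted alone and without either HCT116 AFZC library, with adjusted p from 0.00902 to 0.0434 in those settings and up to 0.295 in the others.

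The Fanconi anchor and core, with UBE2T, split in SW620: FANCM, FANCA, FANCB, FANCG and UBE2T rose by 1.53 to 1.69 on the log2 scale, and FANCC, FANCE, FANCF and FANCL were not called. UBE2T, which passes ubiquitin to the clamp, rose from 24.4 and 26.6 CPM to 86.8 and 78.4 CPM (log2 1.69 ± 0.162, adjusted p = 2.86e-05). FANCL, the ligase that works with UBE2T, was at 38.3 and 31.6 CPM and then 53.8 and 41.5 CPM (log2 0.45 ± 0.192, adjusted p = 0.125). It shares 19.7% of its exon bases with VRK2 and AC007250.1. In SW620, VRK2 had 666 and 642 counts with 5-FU and 506 and 713 with AFZC. FANCA and FANCG, which bind each other in one arm of the core, rose by 1.55 ± 0.167 and 1.58 ± 0.171. FANCA was at 9.64 and 8.85 CPM and then 26.4 and 27.8 CPM in SW620, below all 4 HCT116 libraries (50.5 to 59.8 CPM) under either treatment. Of its exon bases, 23.6% are shared with ZNF276, whose counts were also lower in SW620 than in HCT116. FANCG was at 13.7 and 12.7 CPM and then 37.6 and 41.6 CPM, and at 30.3 to 33.0 CPM in the 4 HCT116 libraries. FANCM, the translocase that anchors the core at a fork, was at 7.26 and 7.25 CPM and then 21.0 and 21.2 CPM, and FANCB at 7.88 and 10.3 CPM and then 28.2 and 24.2 CPM.

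FANCC, FANCE and FANCF make up another arm of the core, and none of them was called in either line. FANCC stayed between 18.6 and 27.7 CPM in all 8 libraries, with log2 changes of -0.07 in each line (95% intervals -0.50 to 0.35 in HCT116 and -0.49 to 0.35 in SW620). FANCE was at 13.9 and 13.4 CPM and then 17.2 and 19.1 CPM in SW620 (log2 0.41, 95% interval -0.04 to 0.86, adjusted p = 0.199). In HCT116 it was at 16.0 and 18.5 CPM and then 28.4 and 21.1 CPM (log2 0.52, 95% interval 0.07 to 0.97, adjusted p = 0.136). Its groups did not overlap in either line, as was so for 18 of 35 members in HCT116 and 30 in SW620. The share of all genes without overlap was not computed. The missing calls do not show a flat level of FANCE, as the intervals reach 0.86 in SW620 and 0.97 in HCT116. FANCF (chr11:22622890-22625841, minus strand) had the lowest log2 change of the 35 in both lines. It was at 11.95 and 11.3 CPM and then 6.83 and 7.6 CPM in HCT116, a log2 change of -0.69 ± 0.213 that missed the threshold (adjusted p = 0.0592, 0.0218 to 0.285 over the alternatives). In SW620 FANCF was at 19.3 and 16.97 CPM and then 15.3 and 14.9 CPM (log2 -0.27, adjusted p = 0.411).

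FANCD2 and FANCI, which form the Fanconi clamp, both rose in SW620. FANCD2 was at 12.7 and 9.18 CPM and then 54.2 and 55.5 CPM (log2 2.33 ± 0.209, adjusted p = 1.71e-05), and FANCI at 56.8 and 41.3 CPM and then 170 and 186 CPM (log2 1.86 ± 0.184, adjusted p = 3.57e-05). In HCT116, FANCD2 was at 38.5 and 51.3 CPM and then 60.2 and 74.3 CPM (log2 0.58, adjusted p = 0.0819, 0.0334 to 0.493 over the alternatives). The proteins pair as a heterodimer, but their RNA did not keep 1 ratio: per kb, FANCD2 was 0.501 to 0.670 times FANCI in the 4 HCT116 libraries, 0.207 and 0.206 times in SW620 with 5-FU and 0.295 and 0.277 times in SW620 with AFZC. Rows named as pseudogenes of FANCD2, MRE11, RAD51AP1 and RBBP8 held 0 to 4 counts per library.

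Whether the effect of AFZC relative to 5-FU differed between the lines was tested directly, as the SW620 effect minus the HCT116 effect. Without untreated cells, a different response to AFZC and a different response to 5-FU cannot be told apart. The IC50 dose was also set for each line. The difference of effects was above 0 for 17 of 35 members and below 0 for 0. Of all genes, 5.65% and 4.14% were called in these directions. The median difference was 1.16 over the members and 0.04 over all genes. With scaling by library size alone, 22 members were above 0, and the calls over all genes were 2455 above and 430 below in place of 1207 and 884. No member was below 0 at an unadjusted p under 0.05, or with DESeq2. BRCA1 had the largest, 2.46 ± 0.348 (log2, SE; adjusted p = 0.00151), followed by RAD54L with 2.43 ± 0.260 (adjusted p = 0.000205), EME1 with 2.42 ± 0.312, BRIP1 with 2.41 ± 0.291, XRCC2 with 2.29 ± 0.338 and BLM with 2.22 ± 0.292. For BARD1 the difference of 1.81 ± 0.277 joined values of opposite sign, -0.42 and 1.39. Of the 6 members that rose in SW620 without a called difference, RAD51C rose in both lines and FANCB had 0.63 in HCT116 and 1.53 in SW620 (difference 0.90, 95% interval 0.19 to 1.60). MRE11, PALB2, RAD54B and XRCC3 had differences of 0.40 to 0.80, which were not called. The least firm of the 17 were GEN1, BRCA2, RAD51D and FANCM. Leaving out 1 library ended the call for BRCA2 in 6 of 8 cases (all but those of HCT116 with AFZC) and for GEN1 and RAD51D in 5 (both HCT116 5-FU libraries, HCT116 AFZC library 1 and library 2 of each SW620 group). For FANCM it was lost without either HCT116 5-FU library. Their values without those libraries ran from 0.86 (GEN1, adjusted p = 0.195) to 2.02 (BRCA2, adjusted p = 0.0509).

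More members were called lower than higher in SW620 relative to HCT116 with 5-FU, and more were called higher than lower with AFZC. With 5-FU, 17 of 35 were lower and 4 higher in SW620, against 28.2% and 26.5% of all genes. With AFZC, 17 were higher and 2 lower, against 25.1% and 24.2% of all genes. These comparisons of lines use the libraries of the treatment comparisons again, so the values restate them from the other side, but the 5-FU and AFZC rows share no library with each other. The medians of the members were -0.49 with 5-FU and 0.49 with AFZC, and those of all genes -0.04 and -0.01. FANCA was lower in SW620 under both treatments, with log2 values of -2.58 ± 0.171 with 5-FU (adjusted p = 7.45e-08) and -1.08 ± 0.161 with AFZC (adjusted p = 0.000117). ZNF276, which shares 23.6% of the exon bases of FANCA, was also lower in SW620. It had 303 and 417 counts with 5-FU and 200 and 182 with AFZC there, against 1509 and 1559, then 1095 and 1414, in HCT116. How much of the FANCA difference goes with reads of ZNF276 was not tested. RAD51C was the other member lower under both, with -1.59 ± 0.201 and -1.28 ± 0.195. FANCB, FANCF, FANCL and MRE11 were higher in SW620 under both, with log2 values of 0.41 to 0.77 with 5-FU and 1.03 to 1.56 with AFZC. With 5-FU the call of MRE11 was the least firm: it was lost in 13 of 16 alternatives, with log2 values of 0.11 to 0.52. Those of FANCB and FANCF were lost in 4 alternatives each and that of FANCL in 2. The 5-FU calls of these 4 depended on the libraries and the scaling: with library sizes alone 0 of the 4 passed (and 4267 of all genes were higher and 7714 lower, in place of 5675 and 6030), and 1 to 4 did when 1 library was left out (1 without either HCT116 5-FU library or without SW620 5-FU library 1, 2 without SW620 5-FU library 2). Without SW620 5-FU library 2 the number lower with 5-FU was 11 in place of 17.

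Members that crossed from lower with 5-FU to higher with AFZC were BRCA1, BRIP1, XRCC2, RAD54L, EME1, FANCM, FANCI and UBE2T. For XRCC2 the SW620 value relative to HCT116 was -0.97 ± 0.241 with 5-FU and 1.33 ± 0.238 with AFZC, and for UBE2T it was -0.50 ± 0.160 and 1.12 ± 0.159. The 5-FU calls of XRCC2 (-0.66, adjusted p = 0.0628), FANCM (-0.68, 0.0771), FANCI (-0.37, 0.194) and UBE2T (-0.56, 0.0567) were lost without SW620 5-FU library 2. Those of FANCM and UBE2T were also lost without SW620 5-FU library 1, and those of FANCM and FANCI without HCT116 5-FU library 2 and of UBE2T without HCT116 5-FU library 1. The AFZC calls of BRIP1 (0.43, adjusted p = 0.110) and FANCM (0.62, 0.0806) were lost without HCT116 AFZC library 1, and that of EME1 (0.66, 0.0504) without SW620 AFZC library 2. BRCA1 and RAD54L lost no call on leaving out 1 library. RAD51AP1 did not differ by the test under 5-FU (0.38, adjusted p = 0.0829) and was higher in SW620 with AFZC by 2.05 ± 0.176 (adjusted p = 9.36e-07). FANCD2 was lower in SW620 with 5-FU (-2.04 ± 0.208) and not called with AFZC (-0.29, 95% interval -0.72 to 0.13). BLM, BARD1, BRCA2, XRCC3, FANCG and RAD50 were also lower with 5-FU and not called with AFZC.

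**Figure D3:**
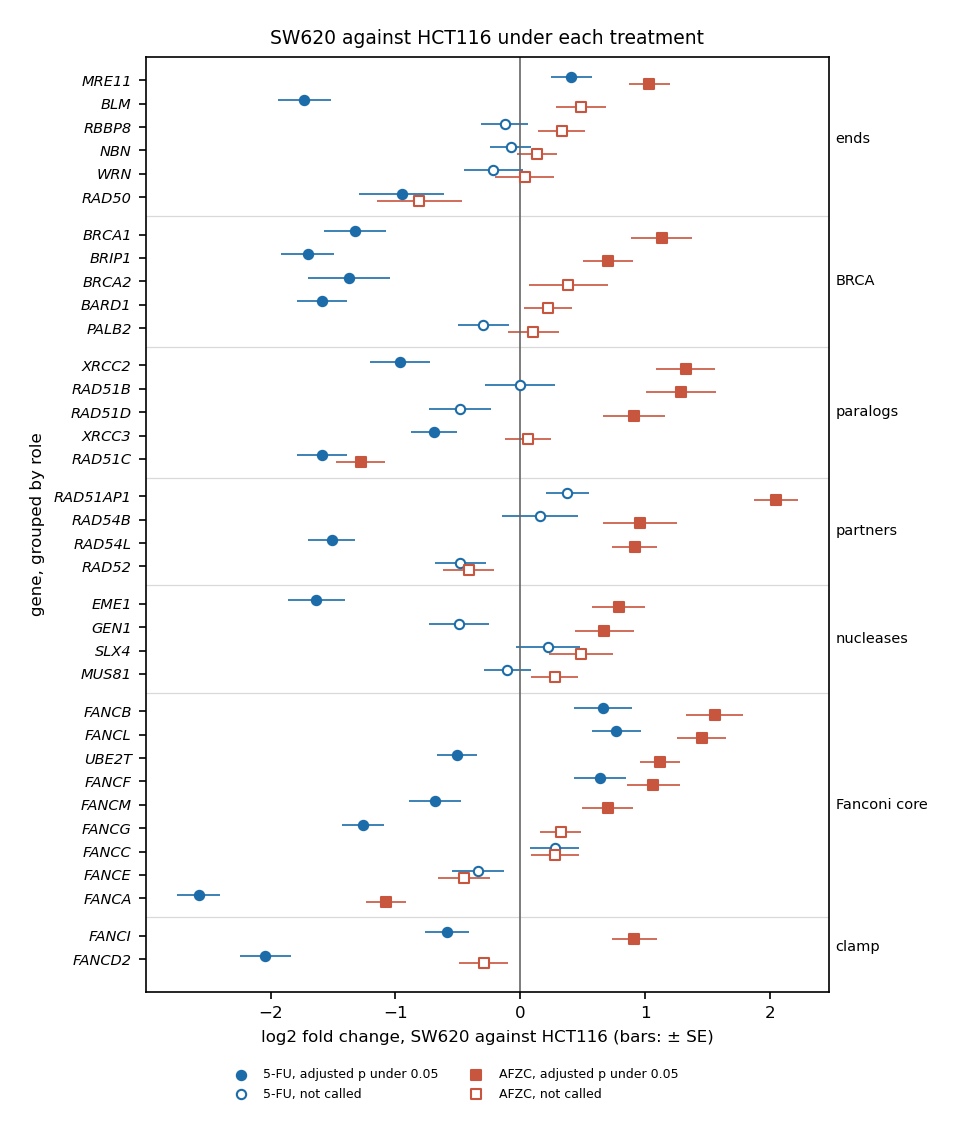
Log2 fold change of each gene in SW620 relative to HCT116, with 5-FU (blue circles) and with AFZC (red squares), with bars of ± SE and filled symbols where the adjusted p was under 0.05. With 5-FU 17 filled symbols lie left of 0 and 4 right of it, and with AFZC 17 lie right of 0 and 2, RAD51C and FANCA, left of it.

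Other genes of the same repair pathways were also called higher more often in SW620 than in HCT116. Like the members, the gene lists here and below were chosen with earlier results of these data known. A list of 36 further recombination and Fanconi genes, of which 35 were tested, had 19 higher (54.3%) and 2 lower (5.71%) in SW620 (median log2 0.81). In HCT116, 2 were higher (5.71%) and 0 lower (median -0.03). Of all genes, 11.6% were higher and 6.95% lower in SW620, and 5.87% and 3.74% in HCT116. The falls in SW620 and the rises in HCT116 were thus near the shares of all genes. The largest in SW620 were EXO1, the resection exonuclease (2.71 ± 0.211), and RMI2, a partner of BLM (2.33 ± 0.219). The 2 that fell, WDR48 (-0.49) and CENPX (-0.46), are named after their values were seen. In HCT116 those that rose were C17orf53, also called HROB, a helicase loader (1.32 ± 0.221), and FIGNL1 (0.51 ± 0.146). Of 16 genes of damage signalling and the BRCA1-A complex, 6 (37.5%) rose and 2 (12.5%) fell in SW620, led by CLSPN (2.56) and CHEK2 (1.42). The 2 that fell, ABRAXAS1 (-0.83) and UIMC1 (-0.51), are named after their values were seen. ABRAXAS1 also fell in HCT116 (-1.26 ± 0.209, adjusted p = 0.00309), where RNF168 rose (0.74). These falls were among the less firm calls, and with scaling by library size 0 of each pair remained called in SW620.

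End joining genes, which rejoin breaks without a template, formed a list of 18. Of these, 3 (16.7%) rose and 0 fell in SW620 (median log2 0.14), where 11.6% of all genes were called higher. In HCT116 0 were called by edgeR, where 5.87% of all genes were called higher. At an unadjusted p under 0.05, 5 were higher and 4 lower in SW620, and 0 higher and 1 lower in HCT116. The share of all genes under that limit was not computed. Of all 21378 genes, DESeq2 called 2664 higher and 1751 lower in SW620, and 1543 and 1172 in HCT116. Of this list it called 4 higher and 2 lower in SW620, and 0 and 1 in HCT116. The 3 were POLQ, the polymerase of theta-mediated end joining, which pairs resected ends (2.55 ± 0.237), XRCC1 (0.90 ± 0.237) and XRCC4 (0.85, named after its value was seen). Without SW620 5-FU library 2 or SW620 AFZC library 1 the number that rose was 1. Summed over the list, the level was 1930 and 1865 CPM with 5-FU and 1895 and 2066 CPM with AFZC in SW620, overlapping groups.

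Genes of DNA synthesis and mitosis moved along with the members in SW620. Of 20 S phase genes, 19 rose and 0 fell there (median 1.87), led by GINS4 (2.81 ± 0.208) and CDC45 (2.70 ± 0.264), which are parts of the replicative helicase. Of 20 genes of G2 and mitosis, 16 rose and 0 fell (median 1.44), led by MKI67 (2.45 ± 0.322) and AURKB (2.36 ± 0.219). Of all genes tested, 11.6% rose and 6.95% fell in SW620, and 5.87% and 3.74% in HCT116. In HCT116, 1 S phase gene rose, PCNA (1.24 ± 0.166), 2 fell, MCM6 (-0.72) and MCM7 (-0.57, named after its value was seen), and 1 gene of G2 and mitosis rose, UBE2C (0.72). At an unadjusted p under 0.05, 8 S phase genes were lower and 1 higher in HCT116, a limit at which the share of all genes was not computed. DESeq2 called 4 of the 20 S phase genes lower in HCT116, and 1172 of all 21378 genes. Of the genes of G2 and mitosis, 5 were higher and 0 lower there at that unadjusted limit. All 20 of these had a positive log2 value in HCT116 (median 0.35), against 8 of the 20 S phase genes (median -0.09). Neither tool called an S phase or G2 gene lower in SW620, and 0 were lower there at an unadjusted p under 0.05. Summed levels of the S phase list were 726 and 664 CPM with 5-FU and 2171 and 2012 CPM with AFZC in SW620, and 1720 to 1887 CPM over all 4 HCT116 libraries. The G2 and mitosis list summed to 1004 and 839 CPM and then 3269 and 2453 CPM in SW620, and to 1290 and 1634 CPM and then 1582 and 2631 CPM in HCT116. The effect of AFZC relative to 5-FU was larger in SW620 than in HCT116 for 19 of the 20 S phase genes (SW620 effect minus HCT116 effect, median 1.92). For the genes of G2 and mitosis it was larger for 5 of 20 and not called for 15 (median 1.002). The 5 were AURKB, CCNA2, KIF11, BUB1B and CDK1, with differences of 1.19 to 1.86, named after their values were seen. That count was 3 without either HCT116 5-FU library or without SW620 5-FU library 2, 9 without SW620 AFZC library 2 or with DESeq2, 13 with scaling by library size or with no filter on low counts, and 17 without HCT116 AFZC library 2. How much of the members' difference goes with the share of cells in S phase or G2 was not tested, and no measure of cell cycle position other than RNA was used.

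**Figure D4:**
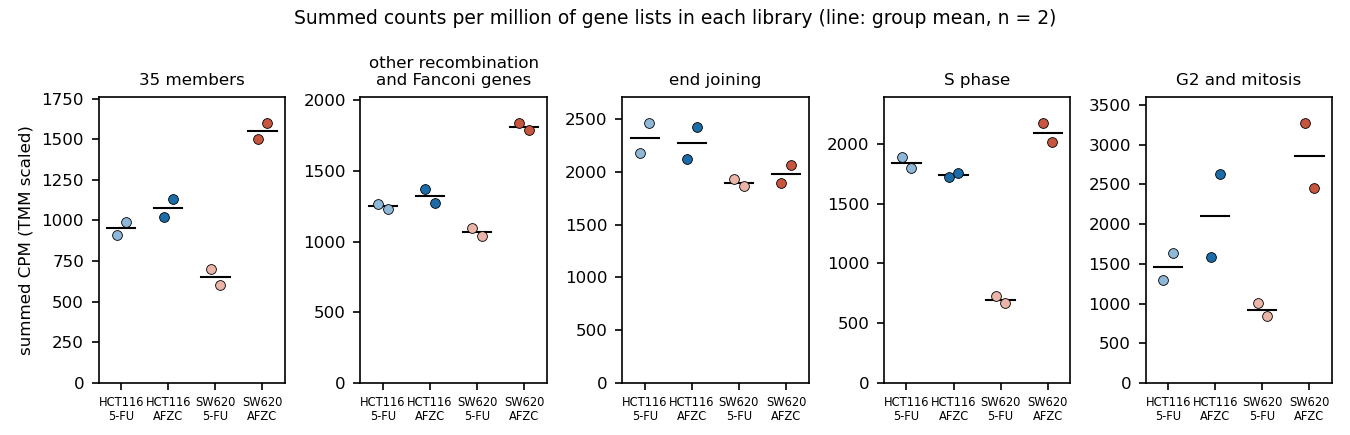
Summed CPM (TMM-scaled, linear axes from 0, separate for each panel) of the 35 members and of 4 other gene lists in each of the 8 libraries, with the mean of each group as a line. The members, the other recombination and Fanconi genes and the S phase genes are lowest in SW620 with 5-FU and highest in SW620 with AFZC, and the end joining genes show no such gap within SW620.

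Within the members, those not called in SW620 were spread over the roles rather than confined to 1 of them. They were RAD50, NBN, RBBP8 and WRN at the break ends, RAD51B among the paralogs, RAD52 among the partners, MUS81 and SLX4 among the nucleases, and FANCC, FANCE, FANCF and FANCL in the Fanconi core. Of these 12, 9 had a positive value in SW620 and 3 a negative one (WRN -0.02, FANCC -0.07 and FANCF -0.27).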

How the data were processed

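RNA of 8 libraries was sequenced after selection of polyadenylated RNA with oligo(dT) beads, in libraries that did not keep the strand, per the labels' protocols. The authors deposited whole-number counts per gene symbol for all libraries together, in the column layout that featureCounts writes. Build GRCh38, the aligners HISAT2 and STAR, the trimmers Trimmomatic and cutadapt, FastQC, featureCounts, edgeR and DESeq2 are named in the submitters' processing notes. Which aligner made the counts, whether both mates of a fragment were counted and how reads over 2 genes were assigned is not given in the sources used here. Per group, the number of genes with 2 counts over the number with 1 was 1.70 to 1.83, so counts were also halved as an alternative. The span of all 35 members was the same as in GENCODE release 29, and 9 of them share over 10% of their exon bases with another gene.

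The counts were fitted with edgeR 4.0.16 in R 4.3.3 (input with data.table, version 1.17.8). filterByExpr with a minimum count of 10 kept 21378 genes, TMM scaled the libraries, and 1 quasi-likelihood model with 4 group means and robust moderation left 4 residual degrees of freedom. The common dispersion gave a coefficient of variation of 19.9%. Contrasts were AFZC against 5-FU in each line, the SW620 effect minus the HCT116 effect, and the lines against each other under each treatment. Two-sided p-values were adjusted by Benjamini-Hochberg over all genes tested, with a threshold of 0.05. The SE is the size of the log2 fold change over the square root of F. Comparing the counts of a group's libraries gave a chi-square of 23.3 to 58.7 for each degree of freedom, so no library was a copy. The steps were tested on simulated data. DESeq2 1.42.0, other scalings, no filter, a replicate block and leaving out each library were among the alternatives.

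All 35 members are named, and from each other list the 2 called genes with the largest change in each treatment comparison; genes named outside this rule are marked. The members, roles and lists were chosen with earlier results of these data known. Promoters were matched by symbol.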

Additional observations from a re-analysis of the deposited data

Results flagged for a closer look

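The effect of AFZC against 5-FU differed between SW620 and HCT116 for 17 of the 35 genes by the test of the difference itself, with edgeR's quasi-likelihood test and adjustment over all genes. Each difference is the log2 effect in SW620 minus that in HCT116, and all 17 were positive. In the BRCA complexes it was 2.46 for BRCA1, 2.41 for BRIP1, 1.81 for BARD1 and 1.76 for BRCA2. Among break ends, paralogs and strand exchange partners it was 2.22 for BLM, 2.29 for XRCC2, 1.39 for RAD51D, 2.43 for RAD54L and 1.67 for RAD51AP1. For the nucleases it was 2.42 for EME1 and 1.16 for GEN1. In the Fanconi core and clamp it was 1.62 for UBE2T, 1.59 for FANCG, 1.5 for FANCA, 1.38 for FANCM, 1.75 for FANCD2 and 1.5 for FANCI. The groups of 2 libraries are too small for a test for stray samples.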

How the results depend on the processing

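With 2 libraries a group, and 1 dose and time per agent in each line, these values describe the libraries at hand. The IC50 dose was set for each line, so line and dose cannot be told apart in comparisons of the lines or of their effects. RAD54B and RAD50 were among the members with the lowest counts, 92 to 305 per library. They share 59.1% and 79.7% of their exon bases with other genes, and how such reads were assigned is not known. Over the alternatives no called value changed sign. Values called in neither setting changed sign in 37 cases (14 members) in HCT116, 11 (6) in SW620 and 14 (6) for the difference. In HCT116 the number of members higher, 1, became 2 with DESeq2, 3 with no filter on low counts, 2 with halved counts and 2 among genes with a mean log2 CPM of at least 1 (a setting chosen after seeing the data), and 0 to 1 when 1 library was left out. The number lower there, 0, became 1 with DESeq2, 1 among genes with a mean log2 CPM of at least 1, and 0 to 1 on leaving out a library. In SW620 the number higher ran from 19 to 24 on leaving out a library and was 29 with scaling by library size, and for the difference it ran from 13 to 17 and was 22. For SW620 against HCT116 with 5-FU, the number higher was 0 with scaling by library size and 1 to 4 on leaving out a library, and the number lower 11 to 18. Over all genes, scaling by library size gave 5141 higher and 445 lower in SW620 (2482 and 1486 with TMM) and 2455 and 430 for the difference (1207 and 884). Leaving out a library gave 216 to 1509 higher and 89 to 1215 lower in HCT116 (1254 and 800), the lowest without HCT116 5-FU library 1, 1135 to 2703 and 448 to 1741 in SW620, the lowest without SW620 5-FU library 2, and 478 to 1521 and 279 to 1112 for the difference. With no filter, 1306 were lower in HCT116 and 1848 higher in the difference. The cause of these changes was not tested, apart from the fewer libraries. Libraries with the same number did not deviate together over all genes tested (correlations of -0.102 to 0.0952). This check cannot show whether libraries with the same number were prepared together. With a replicate block 22 members were higher in SW620 and 16 in the difference, with 1 higher and 0 lower in HCT116, and XRCC3 in SW620 and GEN1 in the difference lost their calls.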
